A study of Mus musculus with 12 samples.

Results

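The step described here is the one from 6 h to 12 h of treatment with mifepristone (MFP) in C4-HD tumours, and it rests on 4 of the 12 arrays of the series. The 2 arrays with the source name 12 h MFP were set against the 2 arrays with the source name 6 h MFP, across the 18193 genes that have at least 1 probe set with a single annotated symbol. C4-HD is a transplantable mouse mammary carcinoma that depends on progestin for its growth in BALB/c mice, and every tumour in the series had grown in mice carrying a pellet of medroxyprogesterone acetate (MPA). In the MFP groups this pellet was taken out at a tumour area of 50 mm2 and replaced by MFP at 10 mg/kg/day under the skin, so both times combine loss of the progestin with the antagonist. The other arrays entered only through the shared estimate of spread and as context. They are 2 with MPA left in place, 2 of saline-treated tumours labelled as without MPA at 48 h, and 2 each at 24 h and 48 h of MFP. RNA came from tumours fixed in formalin and embedded in paraffin, with 200 ng per labelling. The ages of the mice and the number of animals behind an array are not given in the labels. The series text calls the replicates of a condition independent without tying them to separate mice, so the p-values cover the variation among these arrays, part of which may be technical. The 6 h group rests on the sample labels alone, because the series text lists only 12 h, 24 h and 48 h.

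MFP binds the progesterone receptor and keeps progestins from activating it, and it also blocks the glucocorticoid receptor, to which MPA binds as well. In mammary epithelium the progesterone receptor drives division through Ccnd1, Myc and paracrine signals such as Tnfsf11 (RANKL) and Wnt4. Cells that lose a growth signal first stop making the transcripts for entry into S phase, and those for mitosis follow as cells leave the cycle.

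Every value below is deposited on the log2 scale relative to the MPA pair, whose linear mean is the base, so a value of 0 is the MPA level. A difference is the mean at 12 h minus the mean at 6 h on the same log2 scale, given with its standard error in limma and n = 2 arrays per time. The MPA base cancels in it. A gene counts as changed at a Benjamini-Hochberg adjusted p under 0.05. Ratios do not keep the level of a gene above background, so the presence of the epithelial markers that define a mammary carcinoma could not be checked as levels. As ratios, Krt8 stood at 0.18 and 0.13 at 6 h and at 0.62 and 0.46 at 12 h.

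The arrays of the 2 times differed in transcripts of other organs and, for 3 of 4 control genes, in a measure of RNA integrity. The exocrine pancreas list (22 genes) had a median of 5.73 and 4.24 in the 6 h arrays and of 0.14 and 0.96 in the 12 h arrays. For the liver list (25 genes) it was 1.06 and -0.85 at 6 h and -1.24 and -1.23 at 12 h, and that over 18 skeletal muscle genes lay between 0.04 and 0.48 in the 4 arrays. In the 3' minus 5' difference of control probe sets, a measure of RNA integrity, the controls were not alike. For 18S rRNA it overlapped between the times, with -0.079 and -0.064 in the 6 h arrays and -0.087 and -0.075 in the 12 h arrays. For Tfrc it was 0.33 and 0.17 in the 6 h arrays and 0.52 and 0.82 in the 12 h arrays. The 3' minus 5' difference of the Actb control probe sets, which grows as RNA is broken, was 0.20 and 0.13 at 6 h and 0.34 and 0.36 at 12 h. For Gapdh it was 0.10 and -0.06 in the earlier arrays and 0.28 in both 12 h arrays. The list medians below are given again with the pancreas median as a covariate in the fit (the pancreas covariate). This is done where it moves them by over 1.5 times. The slope of that covariate comes only from differences between the 2 arrays of a group. The widest such difference was that of the 24 h pair, at 0.74 and 6.62. Values with the covariate thus rest largely on that pair, carried over to the pancreas gap between 6 h and 12 h. The part of RNA integrity was not tested. In these tumour pieces fewer cells of a type and less RNA per cell cannot be told apart.

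**Figure D1:**
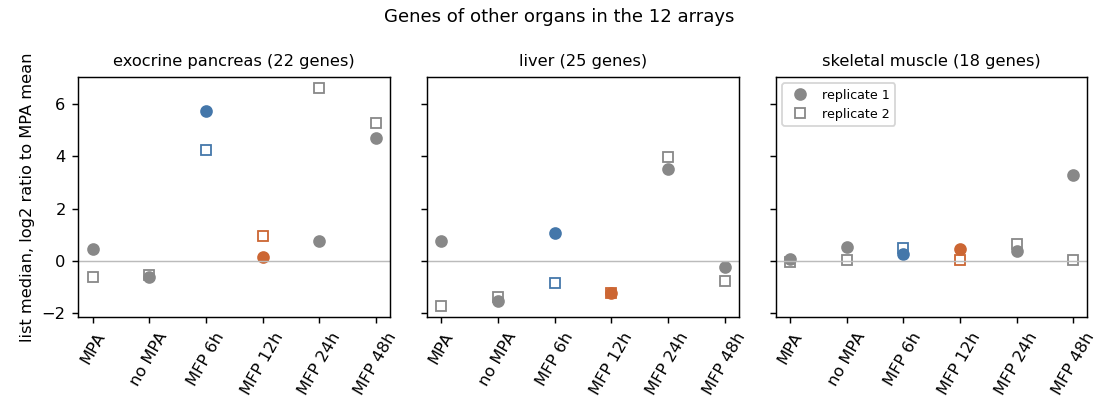
Median log2 ratio to the MPA mean (y axis) over 22 exocrine pancreas, 25 liver and 18 skeletal muscle genes in each of the 12 arrays, by group (x axis); filled circles are replicate 1 and open squares replicate 2. The pancreas median was 5.73 and 4.24 in the 6 h arrays (blue) and 0.14 and 0.96 in the 12 h arrays (orange).

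No gene passed the test between 6 h and 12 h. Of 18193 genes 0 were called higher and 0 lower (background 0% in each direction; limma, smallest adjusted p = 0.307). At an unadjusted p under 0.05 there were 1348 genes, 7.41% of those tested, of which 676 stood higher at 12 h (3.72%) and 672 lower (3.69%). Without MFP 12 h replicate 2 the lower ones numbered 440. Both 12 h arrays lay above both 6 h arrays for 3729 genes (20.5%) and below both for 3736 (20.5%). The same fit called 228 genes at 6 h and 778 at 12 h against MPA, 463 from 12 h to 24 h and 427 from 24 h to 48 h. Whether the number of changes differs between these steps was not tested. A difference below -1 on the log2 scale was measured for 239 genes (1.31%) and one above 1 for 185 (1.02%), and 9084 (49.9%) were lower at 12 h by any amount. For 12346 genes (67.9%) the 95% interval of the difference lay within 1 log2 unit of 0 on either side, and the median half-width of the interval was 0.595.

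**Figure D2:**
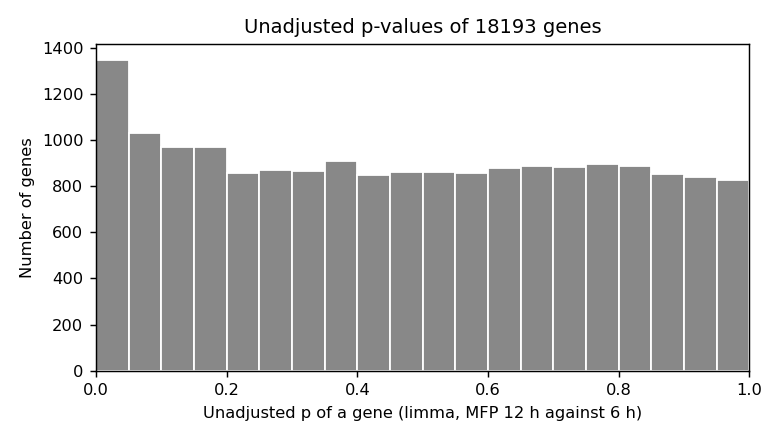
Number of genes (y axis) by unadjusted p of the 12 h minus 6 h difference (x axis, bins of 0.05) for 18193 genes. The first bin holds 1348 genes, and the other bins hold between 827 and 1031.

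Fitted on the 4 arrays alone, 5 genes passed. The chemokine gene Cxcl2, which draws neutrophils, was 2.67 ± 0.55 higher at 12 h (adjusted p = 0.0484 on 4 arrays, 0.363 on 12). Its values were -1.70 and -1.40 at 6 h and 1.19 and 1.04 at 12 h, so that it went from below to above the MPA level. The MPA arrays themselves lay apart, at -1.06 and 0.60. Standard errors here are those of the 12-array fit. The other 4 were lower and are known from pancreas and gut: Reg3b (-7.31 ± 1.97, adjusted p = 0.0184 on 4 arrays), Reg2 (-6.68 ± 1.65), Reg1 (-5.21 ± 1.46) and Dmbt1 (-5.15 ± 1.50). In limma on 12 arrays their adjusted p was 0.422, 0.377, 0.433 and 0.444 in that order. They differed as widely between the 2 arrays at 24 h. There Reg3b was at -0.12 and 8.64, Reg2 at 1.50 and 8.70, Reg1 at 0.45 and 6.82, and Dmbt1 at 1.06 and 7.50. Of the 22 pancreas genes 21 lay lower in both 12 h arrays than in both 6 h arrays, and Ctrc was the remaining one. Without MFP 6 h replicate 1, Gkn1, a stomach gene (-4.01, adjusted p = 0.00876), and Acad11 (-2.96, adjusted p = 0.0499) passed.

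The genes with the smallest p in each direction are named here as chosen after their values were seen. Among those lower at 12 h, E2f8, a repressor of the E2F family that acts late in the cycle, was at -0.19 and -0.39 at 6 h and at -2.29 and -2.03 at 12 h (-1.87 ± 0.33, adjusted p = 0.307). Polh, a DNA polymerase that copies past damage, stood at -0.52 and -0.36 and then at -1.92 and -1.87. The arrays of the 2 times did not overlap for either gene, though their other probe sets had differences as small as -0.06 (E2f8) and -0.01 (Polh). Ahi1 (-1.26 ± 0.21) and Dock2 (-1.19 ± 0.21) had differences of similar size, but the 2 probe sets of Ahi1 disagreed, at -1.26 and 0.06. Among those higher at 12 h, Grwd1, which acts in ribosome assembly, was at -3.09 and -3.39 at 6 h and at -2.02 and -1.94 at 12 h (1.26 ± 0.21, adjusted p = 0.307). It was below the MPA level at both times and less so at 12 h, and 1 of its 3 probe sets was at -0.05. The ubiquitin-like gene Ubd (1.73 ± 0.30) and the antimicrobial peptide gene Defb1 (1.57 ± 0.28) lay between -0.51 and 0.27 at 6 h and between 1.03 and 1.93 at 12 h. Ubd followed an organ list over the 8 arrays outside the contrast. Mall (1.49 ± 0.25) was at 0.05 and 0.15 and then at 1.54 and 1.65. Pogk was at -0.96 and -0.77 and then at 0.65 and 0.45, and Ttc39b at -0.69 and -0.86 and then at 0.56 and 0.70.

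The gene lists below are described by counts, since no member passed the test. They were chosen with earlier results of these data known, so the counts are a description and no independent test. Where a list's member is not the one with the smallest p, it was chosen as an example after its values were seen. Medians are to be read beside that of all 18193 genes, which was 4e-04. Counts without overlap are to be read beside 20.5% of all genes in each direction, and counts at an unadjusted p under 0.05 beside 3.72% higher and 3.69% lower. Several medians near 0 moved by over 1.5 times or turned sign when 1 array was left out, and the larger of these moves are given with them.

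DNA replication genes stood lower at 12 h than at 6 h. Of 31 measured genes 25 were lower in both 12 h arrays than in both 6 h arrays and 0 were higher, beside 20.5% of all genes in each direction. At an unadjusted p under 0.05, 20 were lower and 0 higher, beside 3.69% and 3.72%. The median difference was -0.82, and the list median per array was -0.58 and -0.83 at 6 h and -1.32 and -1.52 at 12 h, below the MPA level at both times. Cdc6, which loads the replicative helicase onto origins, was at -1.70 and -1.41 at 6 h and at -3.38 and -3.99 at 12 h (-2.13 ± 0.44, adjusted p = 0.363). It stood at -4.44 and -3.20 in the 24 h arrays. Rrm2, a subunit of ribonucleotide reductase, was at -1.06 and -1.38 and then at -3.32 and -2.70 (-1.79 ± 0.39, adjusted p = 0.377). Its partner subunit Rrm1 was at -0.29 and -0.26 and then at -1.20 and -1.52. For these 3 genes both 12 h arrays lay below both 6 h arrays. The helicase subunits Mcm5 (-1.59 ± 0.40), Mcm4 (-1.18 ± 0.26), Mcm3 (-1.17 ± 0.42) and Mcm2 (-0.59 ± 0.20) differed to different degrees, and the sliding clamp gene Pcna was -0.77 ± 0.27. The 5 probe sets of Mcm3 ranged from -1.22 to -0.02. Only Fen1 (0.17 ± 0.26) and Mcm10 (0.01 ± 0.26) had a positive difference, and their probe sets disagreed in sign. With the pancreas median as a covariate the list median was -0.64.

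The promoters of Cdc6 and Mcm5 are shown because they hold the letters of the element that E2F factors, which control replication genes, bind. The letters searched were TTTNNCGC on both strands, in windows from 250 bases before to 50 after a start (RefSeq, GRCm38.p6, the first window listed for a gene). They occur in 12 of 26 list members that have a window (46.2%) and in 1425 of 27025 genes (5.27%). Among the mitotic genes described next they occur in 1 of 23 with a window (4.35%). Capitals mark the matches, 138 bases before the start in Cdc6 (chr11:98907901-98908200, plus strand) and 153 and 149 bases before it in Mcm5 (chr8:75109259-75109558, plus strand), where the matches overlap.
Cdc6: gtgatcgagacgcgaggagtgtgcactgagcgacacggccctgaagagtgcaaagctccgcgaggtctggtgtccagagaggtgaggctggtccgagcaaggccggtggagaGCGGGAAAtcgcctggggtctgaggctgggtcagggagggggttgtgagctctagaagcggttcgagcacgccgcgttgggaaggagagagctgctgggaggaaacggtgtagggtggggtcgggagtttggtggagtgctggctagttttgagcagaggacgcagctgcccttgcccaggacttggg
Mcm5: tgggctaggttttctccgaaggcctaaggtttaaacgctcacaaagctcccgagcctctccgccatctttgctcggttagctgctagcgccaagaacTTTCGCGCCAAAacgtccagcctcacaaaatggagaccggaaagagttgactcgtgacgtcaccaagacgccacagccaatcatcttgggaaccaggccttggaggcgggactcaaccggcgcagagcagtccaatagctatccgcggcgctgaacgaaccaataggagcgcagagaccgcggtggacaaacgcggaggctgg
A match describes the letters of a window and shows no binding. Rrm2 has no match in its window.

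Mitotic genes stood lower at 12 h as well. Of 27 measured genes 21 were lower in both 12 h arrays than in both 6 h arrays and 0 were higher, beside 20.5% of all genes in each direction. There were 8 lower and 0 higher at an unadjusted p under 0.05, beside 3.69% and 3.72%. The median difference was -0.55. The list median was 0.15 and -0.14 at 6 h and -0.39 and -0.65 at 12 h. Ndc80, which holds kinetochores to spindle fibres, was at -0.27 and -0.30 and then at -1.03 and -1.06 (-0.76 ± 0.21, adjusted p = 0.431). The spindle checkpoint kinase gene Bub1 was at -0.10 and 0.07 and then at -1.42 and -1.17, and the spindle motor gene Kif11 at 0.15 and 0.05 and then at -0.71 and -0.90. In each of them both 12 h arrays lay below both 6 h arrays. Aurkb was at -0.28 and -0.36 at 6 h, at -1.21 and -1.002 at 12 h, and at -3.62 and -3.39 at 24 h. The proliferation marker Mki67 was at 0.27 and -0.14 and then at -0.51 and -1.02 (-0.83 ± 0.40, adjusted p = 0.69). Bub1b (0.14 ± 0.24) and Cenpe (0.09 ± 0.45) were the 2 with a positive difference. With the pancreas median as a covariate the list median was -0.18 and the difference of Mki67 was 0.0036.

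Among 18 DNA repair and checkpoint genes 13 were lower in both 12 h arrays and 1 was higher, with a median of -0.51 (-0.31 with the mean of a gene's probe sets). At an unadjusted p under 0.05, 7 were lower and 0 higher, beside 3.69% and 3.72% of all genes. Rad51ap1, which helps strand exchange in repair, was at -1.11 and -1.31 and then at -2.12 and -2.39 (-1.04 ± 0.25, adjusted p = 0.377), although 1 of its 4 probe sets was at 0.03. The replication checkpoint kinase gene Chek1 was at -0.93 and -0.68 and then at -2.03 and -1.42, and Chek2 at 0.03 and 0.0026 and then at -0.96 and -0.78. Both 12 h values were lower in each case, though 2 of the 5 probe sets of Chek1 had a positive difference (up to 0.17). Parp1 was among the 4 with a positive difference (0.53 ± 0.44), though its probe sets went down to -0.19.

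**Figure D3:**
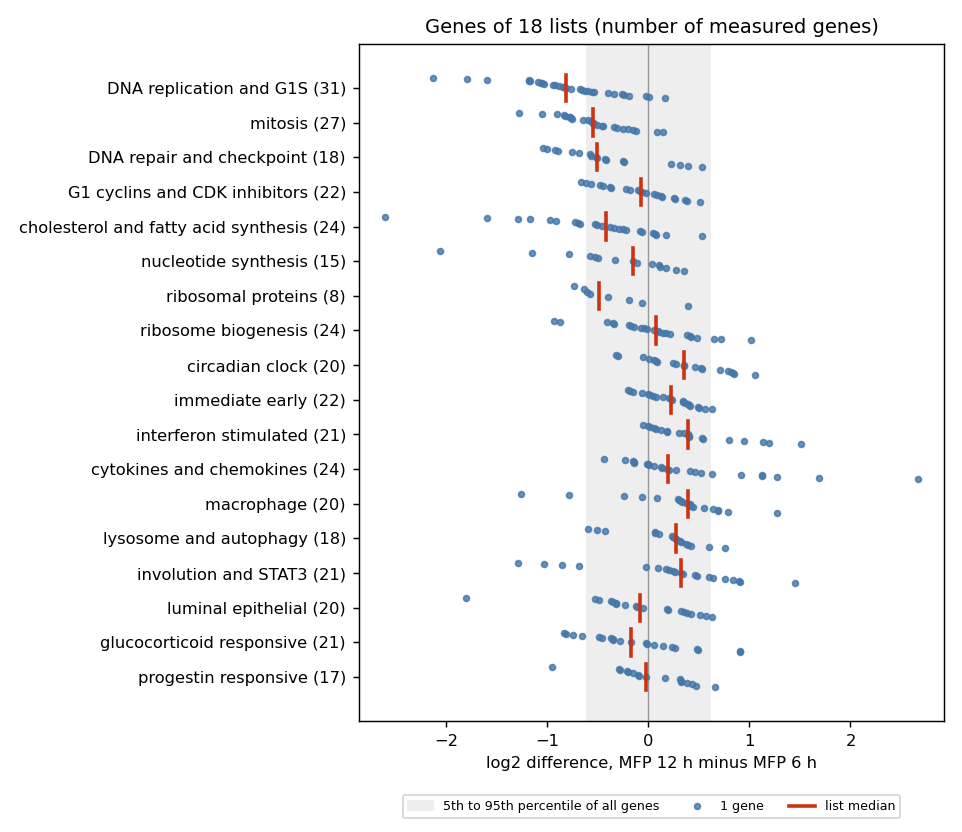
Difference on the log2 scale between MFP 12 h and MFP 6 h (x axis) for each measured gene (blue points) of 18 lists (y axis, number of genes in brackets), with the list median in red and the 5th to 95th percentile of all 18193 genes in grey. The medians of the replication (-0.82) and mitosis (-0.55) lists lie left of 0, and those of the interferon (0.39) and macrophage (0.39) lists right of it.

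Regulators of G1 had a median near that of all genes. Of 22 G1 cyclins, kinases, inhibitors and related genes 7 were lower and 5 higher without overlap, with a median of -0.07 (-0.18 without MFP 12 h replicate 2). Cdkn2c, an inhibitor of Cdk4 and Cdk6, had the smallest p, at 0.56 and 0.46 and then at -0.09 and -0.13 (-0.62 ± 0.25, adjusted p = 0.614). Cdk2, the kinase of the G1/S step, was -0.56 ± 0.23, but its other probe set lay the other way (0.21). Ccnd1, the cyclin through which progestins start the cycle, was already low at 6 h (-1.95 and -1.76) and stood at -1.50 and -1.45 at 12 h (0.38 ± 0.24, adjusted p = 0.808). Myc was at -1.32 and -2.08 at 6 h and at -1.75 and -1.71 at 12 h. Its difference of -0.03 ± 0.29 has a 95% interval from -0.66 to 0.61, which holds no change of 1 log2 unit. Cdkn1a, an inhibitor of cyclin-dependent kinases, was at 0.50 and 0.59 and then at 0.63 and 0.70 (0.12 ± 0.23, adjusted p = 0.971).

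Genes for nucleolar ribosome assembly were far below the MPA level at both times. Their median was -1.09 and -1.46 at 6 h and -1.10 and -1.25 at 12 h, and among 24 genes 5 were lower and 7 higher without overlap (median difference 0.07, or -0.0052 without MFP 6 h replicate 2 and 0.16 with the pancreas covariate). The smallest p was that of Npm1, a nucleolar chaperone, at -0.39 and -0.38 and then at -1.28 and -1.37 (-0.93 ± 0.21, adjusted p = 0.377). Rrs1 lay in the other direction (1.02 ± 0.44). Of the ribosomal protein genes, 5 of 8 were lower in both 12 h arrays and 1 was higher, with a median of -0.49, or 0.07 with the pancreas median as a covariate. Rps19 was at -0.35 and -0.43 and then at -0.88 and -1.05 (-0.58 ± 0.19, adjusted p = 0.491).

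In sterol and fatty acid synthesis the lower members outnumbered the higher. Among 24 measured genes 13 were lower and 1 higher without overlap, with a median of -0.42 (-0.29 with the pancreas median as a covariate). At an unadjusted p under 0.05, 9 were lower and 0 higher. Idi1, which makes the isoprenoid building block of sterols, was at -1.46 and -1.45 at 6 h and at -4.72 and -3.39 at 12 h (-2.60 ± 0.43, adjusted p = 0.307). Its 2 probe sets gave -2.60 and -2.55. It stood at -2.45 and -1.67 in the 24 h arrays and at -3.70 and -3.27 in the 48 h arrays. Insig1, a sterol sensor, was at -1.13 and -1.31 and then at -2.61 and -2.42, and was at -0.31 and 0.54 at 24 h. The sterol reductase gene Dhcr7 was -1.17 ± 0.34. The letters TCACNCCAC of the sterol regulatory element, searched in windows as above, occur in 1 of 18 list members with a window (5.56%). They occur in 330 of 27025 genes (1.22%), and the windows of Idi1, Insig1 and Dhcr7 hold none. On the fatty acid side, the elongase gene Elovl6 was at -1.18 and -1.42 and then at -2.34 and -3.46 (-1.60 ± 0.49, adjusted p = 0.45). Acaca, the first committed enzyme of fatty acid synthesis, was -0.97 ± 0.32, while the desaturase gene Scd1, which followed an organ list, lay the other way (0.53 ± 0.41).

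Enzymes that feed nucleotide synthesis lay lower at 12 h for a few members. Psat1, of serine synthesis, was at -0.77 and -0.31 at 6 h and at -3.12 and -2.63 at 12 h (-2.34 ± 0.45, adjusted p = 0.327), and at -2.07 and -0.80 at 24 h. Shmt2, which passes serine carbon to folate, was at -0.39 and 0.0044 and then at -0.82 and -0.99. Phgdh, the first enzyme of the same branch, was at 2.19 and 0.78 at 6 h and at -0.32 and -0.41 at 12 h. Its values followed an organ list over the other 8 arrays, and its difference of -1.85 ± 0.94 was 0.76 with the pancreas median as a covariate. The pyrimidine enzyme gene Cad stood at -0.54 and -1.68 and then at -3.74 and -2.61 (-2.06 ± 0.51, adjusted p = 0.377), with probe sets from -2.06 to 0.11. In the nucleotide list of 15 genes 6 were lower and 2 higher without overlap (median -0.16). Without MFP 6 h replicate 2 that median was -0.48, and without MFP 12 h replicate 2 it was -0.33. The 20 genes of the ATF4 and amino acid list had a median of -0.16 (-0.047 with the pancreas covariate, -0.24 without MFP 6 h replicate 1), with 8 lower and 3 higher.

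Of the clock genes, 17 of 20 had a positive difference. The core clock is a loop in which Clock and Arntl drive the Per and Cry repressors and the output factors. The time of day at which tumours were taken is not given in the labels. Of 20 measured genes 10 were higher and 1 lower without overlap, beside 20.5% of all genes in each direction. At an unadjusted p under 0.05, 6 were higher and 0 lower, beside 3.72% and 3.69%. The median difference was 0.35, or 0.20 with the mean of a gene's probe sets. Bhlhe41, a repressor in the loop, was at 0.51 and 0.76 at 6 h and at 1.44 and 1.50 at 12 h (0.84 ± 0.25, adjusted p = 0.445). The output factor Tef was at -0.53 and 0.10 and then at 0.70 and 0.57 (0.85 ± 0.28), though 1 of its 3 probe sets did not follow (-0.06). Nr1d2, a nuclear receptor that represses Arntl, was at 0.53 and 0.66 and then at 1.40 and 1.21. Per2 was at -1.10 and -1.05 and then at 0.05 and -0.57, and Nfil3 at -0.62 and -1.45 and then at -0.27 and -0.23. In these 5 genes both 12 h arrays lay above both 6 h arrays. Arntl had the largest difference of the list (1.06 ± 0.54), with arrays that overlapped (-0.58 and -2.11, then -0.72 and 0.14). Its other probe set was at -0.04. Per1 was near the MPA level throughout, at -0.09 and 0.12 and then at 0.01 and 0.12, and Cry1 was at -1.28 and -0.83 and then at -1.37 and -1.32.

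Tef and Bhlhe41 carry the letters of the E-box that Clock and Arntl bind, and their windows are shown for that reason. The letters searched were CACGTG, which read the same on both strands. They occur in 5 of 17 list members that have a window (29.4%) and in 1957 of 27025 genes (7.24%). The match lies 127 bases before the start in Tef (chr15:81802423-81802722, plus strand) and 153 before it in Bhlhe41 (chr6:145865371-145865670, minus strand), in capitals.
Tef: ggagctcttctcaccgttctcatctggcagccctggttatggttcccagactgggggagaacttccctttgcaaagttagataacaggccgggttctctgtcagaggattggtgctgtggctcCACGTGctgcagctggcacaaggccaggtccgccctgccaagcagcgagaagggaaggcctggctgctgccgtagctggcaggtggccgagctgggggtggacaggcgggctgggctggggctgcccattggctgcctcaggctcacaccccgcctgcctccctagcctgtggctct
Bhlhe41: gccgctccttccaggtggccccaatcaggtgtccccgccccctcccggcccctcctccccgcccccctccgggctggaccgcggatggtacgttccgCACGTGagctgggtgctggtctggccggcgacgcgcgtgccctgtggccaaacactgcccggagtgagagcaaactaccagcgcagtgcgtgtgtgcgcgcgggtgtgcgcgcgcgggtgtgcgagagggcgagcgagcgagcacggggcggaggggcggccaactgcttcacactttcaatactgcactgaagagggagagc
The windows of Nr1d2 and Nfil3 hold no such letters.

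Interferon-stimulated genes stood higher at 12 h. Of 21 genes 13 were higher in both 12 h arrays and 0 lower, beside 20.5% of all genes in each direction. Those at an unadjusted p under 0.05 were 5 higher and 0 lower, beside 3.72% and 3.69%. The median difference was 0.39. Without MFP 6 h replicate 2 the median was 0.15. The list median per array was 0.43 and 0.12 at 6 h and 0.71 and 0.71 at 12 h. Ifit2, which binds RNA and limits viral translation, was at 0.14 and -0.21 and then at 1.40 and 1.56 (1.51 ± 0.37, adjusted p = 0.377). It stood at 1.95 and 2.53 in the 24 h arrays. Its relative Ifit3 was at 0.15 and -0.34 and then at 1.12 and 0.96, and Ifit1 at 0.86 and 0.32 and then at 1.76 and 1.32. The chemokine gene Cxcl10 (1.20 ± 0.35) and the antiviral gene Rsad2 (0.80 ± 0.31) lay in the same direction.
The window of Ifit3 (chr19:34583279-34583578, plus strand) holds matches to the interferon-stimulated response element, ISRE, searched on both strands and shown in capitals, 156 and 122 bases before the start. Such matches occur in 11 of 17 members with a window (64.7%) and in 943 of 27025 genes (3.49%). The window of Ifit2, the member with the smallest p, holds none.
Ifit3: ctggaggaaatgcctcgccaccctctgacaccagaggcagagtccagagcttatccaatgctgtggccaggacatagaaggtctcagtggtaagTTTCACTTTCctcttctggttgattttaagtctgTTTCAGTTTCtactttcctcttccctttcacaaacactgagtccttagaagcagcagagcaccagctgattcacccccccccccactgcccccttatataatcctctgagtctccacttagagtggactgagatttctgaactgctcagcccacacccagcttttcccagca

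In the list of 24 cytokines and chemokines 11 were higher and 1 lower without overlap, and 4 were higher at an unadjusted p under 0.05, beside 20.5% and 3.72% of all genes. The median was 0.19, or 0.35 with the pancreas covariate. Besides Cxcl2, which had the smallest p, the macrophage chemokine gene Ccl3 was at 0.57 and -0.48 and then at 1.93 and 1.55 (1.69 ± 0.35, adjusted p = 0.363). Ccl7 (1.13 ± 0.43) and Ccl2 (1.12 ± 0.48), which call in monocytes, lay in the same direction. The one lower without overlap was Cxcl1 (-0.44 ± 0.37), whose product shares a receptor with that of Cxcl2. The 3 probe sets of Cxcl1 ranged from -0.54 to 0.02. Ccl3, Ccl2, Ccl7, Cxcl10 and Ifit1 followed an organ list over the other 8 arrays.

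Of 20 macrophage markers 12 were higher and 1 lower without overlap, beside 20.5% of all genes in each direction. A single one was higher at an unadjusted p under 0.05, which at 5% is near the 3.72% of all genes. The median was 0.39. The list median was -0.47 and -0.48 at 6 h and 0.04 and -0.06 at 12 h, and all 4 values lie between those of the 2 MPA arrays (-0.82 and 0.52). Cd68, a lysosomal protein of macrophages, was at -0.78 and -0.35 and then at 0.28 and 0.17 (0.78 ± 0.33, adjusted p = 0.65), and it followed an organ list. The scavenger receptor gene Msr1 was at -0.62 and -0.87 and then at 0.53 and 0.53 (1.28 ± 0.62). The list also held negative differences. Cd163, which followed an organ list, was -1.25 ± 0.60 with arrays that overlapped, and Mrc1 was -0.78 ± 0.59, or 0.17 with the pancreas covariate. Of the other white cells, the neutrophil list of 12 genes had 2 higher and 1 lower without overlap, led by Mmp8 (0.40 ± 0.25, or -0.13 with the pancreas covariate). The T and NK cell list of 16 had 5 and 1, led by Ccl5 (1.04 ± 0.41), and the B and plasma cell list of 12 had 2 and 6, with a median of -0.24 that was 1.55 with the pancreas covariate. Sdc1, which epithelium also makes, had the smallest p of the latter (0.75 ± 0.25). In the mast cell list of 8 no gene stood apart, and the smallest p was that of Kit (-0.52 ± 0.39), which followed an organ list. Of 15 antigen presentation genes 6 were higher and 0 lower without overlap, led by Ctss (0.55 ± 0.34), but 0 reached an unadjusted p under 0.05 in either direction.

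Genes of lysosomes and of mammary involution had small positive medians. In the lysosome and autophagy list of 18, 9 were higher and 3 lower without overlap (median 0.27, or 0.12 with the mean of a gene's probe sets). Only 1 of them was higher and 1 lower at an unadjusted p under 0.05. Lamp2, a protein of the lysosome membrane, was at 0.64 and 0.47 and then at 1.05 and 1.26 (0.60 ± 0.20, adjusted p = 0.505). The autophagosome gene Map1lc3b, which followed an organ list, lay the other way (-0.59 ± 0.23), though 1 of its 4 probe sets was at 0.14. In the involution and STAT3 list of 21, 12 were higher and 3 lower without overlap (median 0.32). At an unadjusted p under 0.05, 1 was higher and 1 lower, beside 3.72% and 3.69% of all genes. Of the 21 genes 5 belonged to or followed an organ list. Clu, a chaperone secreted in the involuting gland, was at -0.61 and -0.30 and then at 0.98 and 1.01 (1.45 ± 0.41, adjusted p = 0.441), and it too followed an organ list. The STAT3 feedback gene Socs3 (0.83 ± 0.46), the oncostatin receptor gene Osmr (0.90 ± 0.57) and Cebpd (0.91 ± 0.48) lay in the same direction as Clu. The 2 MPA arrays lay further apart than this step for Socs3 (-1.16 and 0.63), Osmr (-1.47 and 0.71) and Cebpd (-0.90 and 0.55). Hp, an acute phase gene that liver makes, had the smallest p and lay the other way (-1.29 ± 0.36). In the liver list 18 of 25 genes were lower and 0 higher without overlap (median -1.70, or -0.64 without MFP 6 h replicate 1 and -0.63 with the pancreas covariate).

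**Figure D4:**
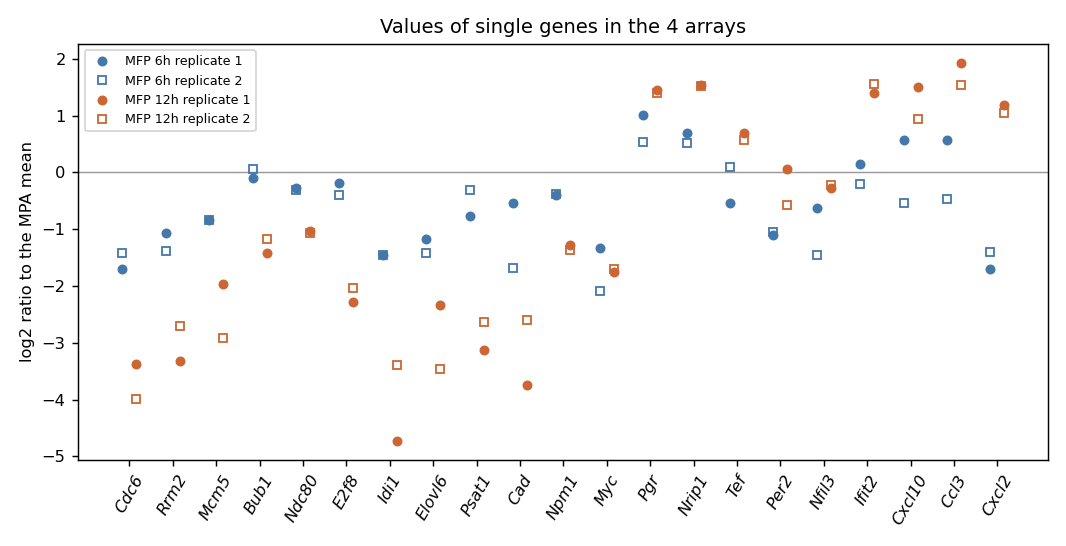
Log2 ratio to the MPA mean (y axis) of 21 genes (x axis) in the 2 MFP 6 h arrays (blue) and the 2 MFP 12 h arrays (orange); filled circles are replicate 1 and open squares replicate 2. Cdc6 lay at -1.70 and -1.41 at 6 h and at -3.38 and -3.99 at 12 h, Cxcl2 at -1.70 and -1.40 and then at 1.19 and 1.04, and the values of Myc overlapped.

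The progesterone receptor gene Pgr was above the MPA level at both times, at 1.005 and 0.53 and then at 1.46 and 1.40 (0.66 ± 0.29, adjusted p = 0.657), and its 3 probe sets had the same sign. Nrip1, a corepressor of nuclear receptors and an estrogen target, was at 0.69 and 0.52 and then at 1.54 and 1.53 (0.93 ± 0.23, adjusted p = 0.378), with all 6 probe sets positive. The estrogen receptor gene Esr1 was at -0.05 and 0.19 and then at -0.29 and -0.31 (-0.37 ± 0.24), and the glucocorticoid receptor gene Nr3c1 at -0.40 and -0.83 and then at 0.44 and -0.08, with 4 of its 6 probe sets positive. For these 4 genes the arrays of the times did not overlap. Among 20 estrogen-responsive genes 9 were higher and 2 lower without overlap (median 0.13, or 0.22 without MFP 12 h replicate 1 and 0.24 with the pancreas covariate). Among 16 receptors and coregulators there were 4 and 4 (median 0.01, or 0.13 without MFP 6 h replicate 1 and 0.0996 with the pancreas covariate). The 17 progestin-responsive genes had 4 higher and 4 lower (median -0.03, or 0.07 with the pancreas covariate and 0.17 with quantile normalization). Cited1, a transcriptional coregulator, was -0.96 ± 0.49. The paracrine genes Tnfsf11 (-0.29 ± 0.28, 95% interval -0.91 to 0.32) and Wnt4 (0.31 ± 0.39, 95% interval -0.56 to 1.18) overlapped between the times, and Wnt4 was at -0.61 with the pancreas median as a covariate.

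Of 21 glucocorticoid-responsive genes 4 were higher and 6 lower without overlap. At an unadjusted p under 0.05, 1 was higher and 4 lower, beside 3.72% and 3.69% of all genes. The list median was -0.17. That median was -0.0015 without MFP 12 h replicate 2, -0.08 without MFP 6 h replicate 1, -0.28 without MFP 12 h replicate 1 and -0.32 with the pancreas covariate. Rgs2, an inhibitor of G protein signals, was at -1.12 and -0.75 and then at -1.51 and -1.68 (-0.66 ± 0.20, adjusted p = 0.46), and at -3.13 and -3.16 at 24 h. Ddit4, an inhibitor of mTOR signalling, was -0.74 ± 0.25, while the kinase gene Sgk1 was 0.91 ± 0.33. The receptor cochaperone gene Fkbp5 was well below the MPA level at both times, at -1.33 and -0.82 and then at -1.25 and -1.47 (-0.28 ± 0.26). Zbtb16 (-0.35 ± 0.40) and Tsc22d3 (-0.81 ± 0.47) overlapped between the times as well.

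Luminal markers had 7 higher and 4 lower without overlap among 20 (median -0.08). That median turned sign on leaving out MFP 6 h replicate 2 (0.08) or MFP 12 h replicate 2 (0.11), and without genes that follow an organ list (0.18). The adhesion genes Cdh1 (0.63 ± 0.21) and Cldn4 (0.57 ± 0.23) were higher in both 12 h arrays. Prom1, which followed an organ list, was at 1.89 and 2.83 and then at 0.28 and 0.84 (-1.80 ± 0.51, adjusted p = 0.433). Basal markers had 7 higher and 1 lower among 16, with Itga6 at 0.77 ± 0.26, and milk and secretory genes 4 and 5 among 17, with the pancreatic lipase Cel at -4.08 ± 1.42. Growth factors and receptors had 4 higher and 7 lower among 26 (median -0.20, or -0.11 without MFP 6 h replicate 2, and -0.032 when MFP 12 h replicate 2 was left out). The smallest p among them was that of Igf1 (-0.91 ± 0.39), which followed an organ list, and the EGF receptor ligand gene Btc lay the other way (1.18 ± 0.59). Dusp6, a phosphatase that ERK signalling induces, was at -1.29 and -1.12 and then at -0.59 and -0.22 (0.80 ± 0.29, adjusted p = 0.547). Its list had 5 higher and 2 lower among 15. In the TGF-beta and WNT list 8 of 21 were higher and 3 lower without overlap, led by Wnt7b (0.74 ± 0.28). At an unadjusted p under 0.05, 1 of the 21 was higher and 0 lower.

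At an unadjusted p under 0.05, 1 of 22 immediate early genes was higher (4.55%) and 0 lower, near the 3.72% and 3.69% of all genes. Without overlap, immediate early genes had 12 higher and 1 lower (median 0.23, or 0.15 with the pancreas covariate). Klf6 was at 0.71 and 0.57 and then at 1.17 and 1.37 (0.63 ± 0.22, adjusted p = 0.513), with all 5 of its probe sets positive. Heat shock genes had 6 and 3 among 19, led by the small chaperone gene Hspb1 (0.95 ± 0.35), and unfolded protein response genes 8 and 3 among 18, with the disulfide isomerase gene Pdia4 at -0.72 ± 0.29. The NRF2 and metallothionein list had 2 and 4 among 14, with Mt1 at -0.48 ± 0.21. In the BCL2 family 2 of 15 were higher and 2 lower. Bid, which links death receptors to mitochondria, was at -0.80 and -1.04 and then at -0.01 and 0.44 (1.13 ± 0.29, adjusted p = 0.38), but its probe sets ranged from -0.02 to 1.13. Among 18 p53 targets 5 were higher and 4 lower, with Bbc3 at -0.48 ± 0.22. No gene of the hypoxia and glycolysis list of 21 stood apart, and its smallest p was that of Egln3 (0.57 ± 0.35). Respiratory and citric acid cycle genes had 1 higher and 8 lower among 19, with Ndufa4 at -0.54 ± 0.22. Their median was -0.18, but -0.033 without MFP 12 h replicate 2 and 0.034 with the pancreas covariate. Translation factors and tRNA synthetases had 1 and 5 among 17, with Eef1a1 at -0.35 ± 0.19.

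At an unadjusted p under 0.05, 0 of 21 fibroblast and collagen genes were higher and 0 lower. Without overlap these genes had 7 higher and 0 lower, with Thbs1 at 1.23 ± 0.75. Their median was 0.22, but 0.025 without MFP 6 h replicate 1, 0.50 without MFP 6 h replicate 2, 0.37 without MFP 12 h replicate 1 and 0.085 with the pancreas covariate. Matrix proteases and inhibitors had 5 and 3 among 18, with Timp2 at 0.60 ± 0.28. Their median was 0.29, but 0.15 without MFP 12 h replicate 2 and 0.14 with the pancreas covariate. The endothelial list had 1 higher and 5 lower among 18, with Kdr at -0.30 ± 0.21. Smooth muscle and pericyte genes had 4 and 1 among 13, with Myh11, which followed an organ list, at 1.06 ± 0.52, and adipocyte genes 3 and 3 among 12, with Lipe at -0.37 ± 0.29. The other probe set of Lipe was at 0.29. Of the lists for other organs besides pancreas and liver, the smallest p belonged to Sbsn of the epidermis (1.61 ± 0.58), Actc1 of the heart (-0.58 ± 0.23), Chga of islets (0.45 ± 0.22), Apob of the intestine (-1.83, 95% interval -4.05 to 0.40) and Nphs1 of the kidney (-0.43 ± 0.24). Those of erythroid cells, brain and skeletal muscle were Slc4a1 (-2.62 ± 1.54), Stmn2 (0.33 ± 0.25) and Myh4 (-1.92 ± 1.70).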

How the data were processed

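GCRMA is named in the submitters' processing notes; its version and settings are not stated in any source at hand. The values the authors deposited are on the log2 scale and cover 45101 probe sets. For 45099 of them the linear mean of the MPA arrays is 1 within 0.0001, so each value is a log2 ratio to that mean. Signal over background is not kept, so no filter on dim probes was possible, and scan or slide batches were not analysed here.

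The 34945 probe sets with 1 symbol were used, and the one with the largest SD over all 12 arrays stood for its gene, which gave 18193 genes. This rule favours probe sets with larger differences. Tests used limma 3.58.1 in R 4.3.3: lmFit with a mean for each of 6 groups over all 12 arrays, eBayes (6 residual and 4.21 prior degrees of freedom), the contrast of MFP 12 h with MFP 6 h, and Benjamini-Hochberg adjustment over all genes. The script was tested on 10 simulated data sets, each with 200 of 18193 genes changed by 1, 2 or 3 log2 units. It recovered 25.1% of the changes of 1, 77.6% of those of 2 and 94.8% of those of 3. False calls averaged 5.38% of the calls. Most changes of 1 log2 unit were thus missed in the simulation, so a count of 0 does not show that such changes are absent. Within a group the values of both arrays were subtracted, and the SD over probe sets was 0.41 at 6 h and 0.39 at 12 h. Over the 6 groups it ran from 0.39 to 0.56, and the fit shares 1 spread per gene among them. The number of arrays limits the precision.

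The members and the 54 gene lists were chosen with earlier results of these data known. Of 969 list genes 884 were measured, and 85 were not analysed here. The rule for named genes asked for the 12 largest changes in each direction and the 5 largest with organ genes kept, among genes past the threshold, which named none. It also asked for up to 4 changed members in each direction per list or the member with the smallest p, and for 14 genes in any case (Pgr, Esr1, Nr3c1, Tnfsf11, Wnt4, Ccnd1, Myc, Mki67, Cdkn1a, Krt8, Fkbp5, Tsc22d3, Zbtb16 and Per1). A gene follows an organ list when its correlation with that list's median is above 0.8 over the 8 arrays outside the contrast. Alternatives changed the arrays, probe sets, normalization, weights, moderation, genes and covariates.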

Additional observations from a re-analysis of the deposited data

How the results depend on the processing

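No gene was called in 12 of 15 alternatives, with smallest adjusted p-values from 0.116 to 0.626 there. The count was 5 on the 4 arrays alone, 4 of them list members, and 1 with quantile normalization (Grwd1); leaving out 1 array gave 0 to 2 genes, and 0 list members. At an unadjusted p under 0.05, quantile normalization gave 389 genes higher and 406 lower, and the upper SD group of genes, with fewer genes tested, 306 and 325. Leaving out 1 array gave 468 to 584 higher and 440 to 603 lower. Of 155 named genes 20 turned sign in some alternative, and the cause was not tested. The pancreas covariate rests largely on the 24 h pair, as given above. With the pancreas median as a covariate the differences were 1.10 for Bcl2, -0.15 for Bub1b, -0.041 for Cdkn1a, 0.36 for Cel, 0.034 for Lipe, -0.11 for Mcm10, 0.0036 for Mki67, -0.13 for Mmp8, 0.17 for Mrc1, 0.14 for Myc, 0.13 for Myh4, -0.064 for Per1, 0.76 for Phgdh, 0.084 for Slc4a1 and -0.61 for Wnt4. With the mean of a gene's probe sets they were -0.10 for Bub1b, -0.25 for Cenpe, -0.19 for Fen1 and -0.11 for Mcm10. With the probe set chosen on the 8 other arrays they were 0.060 for Ahi1 and -0.019 for Bid, and with quantile normalization 0.23 for Myc. Leaving out 1 array gave -0.14 to 0.43 for Bub1b, -0.18 to 0.35 for Cenpe, -0.031 to 0.36 for Fen1, -1.08 to 0.035 for Kit, -0.31 to 0.33 for Mcm10, -0.41 to 0.36 for Myc and -0.053 to 0.16 for Per1. No paired analysis was possible because the labels carry no replicate numbers. The numbers replicate 1 and replicate 2 used here follow the order of the samples in the series and pair no arrays across groups. How far signal over background limits these values is unknown.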
